A study of Mus musculus with 24 samples.

Results

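The transcripts of 10 genes that mark Kupffer cells, the resident macrophages of the liver, or macrophages in general were followed through a study of furan toxicity in mouse liver. The genes were Clec4f, Vsig4, Marco, Timd4, Cd5l, C1qa, C1qb, C1qc, Cd68 and Csf1r. They were taken by symbol from a deposited table of counts for 24015 genes, and all 10 were in it and passed the low-count filter of every comparison. Female B6C3F1 mice, aged 5 to 6 weeks per the labels, were given furan in corn oil by gavage at 8 mg/kg body weight for 21 days, and control mice were given corn oil alone. Livers were collected 4 h after the last dose, and all groups shared strain, sex, vehicle and gavage. A part of each liver was snap-frozen, and other parts were kept in formalin for 18 h or for 3 wk and embedded in paraffin (FFPE). The groups used here were 3 control and 3 furan fresh-frozen libraries, 4 control and 4 furan FFPE 18 h libraries, and 4 control and 4 furan FFPE 3 wk libraries. Replicates of a group were separate animals, and pieces of 1 liver carried the same animal number. The whole liver was sampled, so in every comparison below a change in the number of macrophages and a change in RNA per macrophage cannot be told apart.

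Kupffer cells sit in the liver sinusoids, where they clear bacteria, dying cells and immune complexes from portal blood. They express scavenger and complement receptors (Clec4f, Vsig4, Marco, Timd4), secrete the apoptosis inhibitor of macrophages (Cd5l) and, with other macrophages, make the A, B and C chains of C1q (C1qa, C1qb, C1qc). C1q is the recognition part of the first complement component, whose proteases and downstream factors are made mainly by hepatocytes. Kupffer cell survival depends on signalling through the CSF1 receptor (Csf1r), and the identity of these cells on transcription factors that include PU.1 (Spi1) and the MAF family.

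The promoters of several of these genes hold a core word of PU.1 binding sites. The letters GAGGAA were searched on both strands of the 250 bases before each transcript start in the RefSeq table for GRCm38.p6, which held 8 of the 10 genes and not C1qa or Csf1r. They were found in 6 of the 8 windows, those of C1qb, C1qc, Cd5l, Cd68, Marco and Vsig4, against 23.3% of all 32851 windows of that length. The letters TGCTGA, from MAF binding sites, were found in 4 of the 8 (C1qb, Cd5l, Clec4f and Timd4; 16.1% of all windows), and AGGTCA, from nuclear receptor sites, in 3 of the 8 (C1qc, Clec4f and Timd4; 14%). No matches of different motifs shared bases in these windows. The windows of the members with the largest preservation differences or with a furan call described below are given 5′ to 3′ on the gene's strand, with the GAGGAA match or its reverse complement in capitals. They lie at chr4:136886201-136886450 (C1qb), chr4:136892915-136893164 (C1qc), chr1:120505025-120505274 (Marco) and chr11:69666171-69666420 (Cd68), all on the minus strand. A match is a description of the letters and not evidence of a bound site.
C1qb: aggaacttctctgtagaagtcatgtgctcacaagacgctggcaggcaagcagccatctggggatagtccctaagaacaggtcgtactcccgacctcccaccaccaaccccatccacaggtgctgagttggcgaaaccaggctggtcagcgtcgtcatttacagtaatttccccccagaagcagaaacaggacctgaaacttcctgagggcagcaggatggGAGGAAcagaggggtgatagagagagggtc
C1qc: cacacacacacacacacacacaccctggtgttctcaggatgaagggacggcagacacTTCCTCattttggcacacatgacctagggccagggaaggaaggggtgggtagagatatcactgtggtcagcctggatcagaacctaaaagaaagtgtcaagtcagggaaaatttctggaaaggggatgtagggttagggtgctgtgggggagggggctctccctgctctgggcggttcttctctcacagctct
Marco: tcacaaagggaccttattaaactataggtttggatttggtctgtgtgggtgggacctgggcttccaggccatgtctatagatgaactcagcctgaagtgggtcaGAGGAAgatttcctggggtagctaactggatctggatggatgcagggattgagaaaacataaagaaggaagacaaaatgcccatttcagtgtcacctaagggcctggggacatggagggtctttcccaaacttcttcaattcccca
Cd68: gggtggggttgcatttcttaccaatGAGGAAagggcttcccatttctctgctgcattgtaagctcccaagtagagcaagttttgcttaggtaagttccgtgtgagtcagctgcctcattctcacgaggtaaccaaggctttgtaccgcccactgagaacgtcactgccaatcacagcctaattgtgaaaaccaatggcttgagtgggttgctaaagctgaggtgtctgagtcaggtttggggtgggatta

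The libraries differed in depth between kinds of piece. Total counts lay between 33101755 and 58048387 in frozen pieces, 16269854 and 22494012 in FFPE 18 h pieces, and 3666173 and 11780691 in FFPE 3 wk pieces. The ribosomal precursor Rn45s took 0.129% to 0.520%, 6.42% to 37.3% and 4.85% to 13.2% of the counts, and the 37.3% belonged to FFPE 18 h control animal 06. Levels are in CPM, counts relative to the library total, scaled over all 22 libraries with the trimmed mean of M-values (TMM). As a check of the labelled tissue, 8 hepatocyte markers summed to between 133835 and 139539 CPM in fresh-frozen controls. The single libraries of every member are shown in the plot of levels by library.

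**Figure D1:**
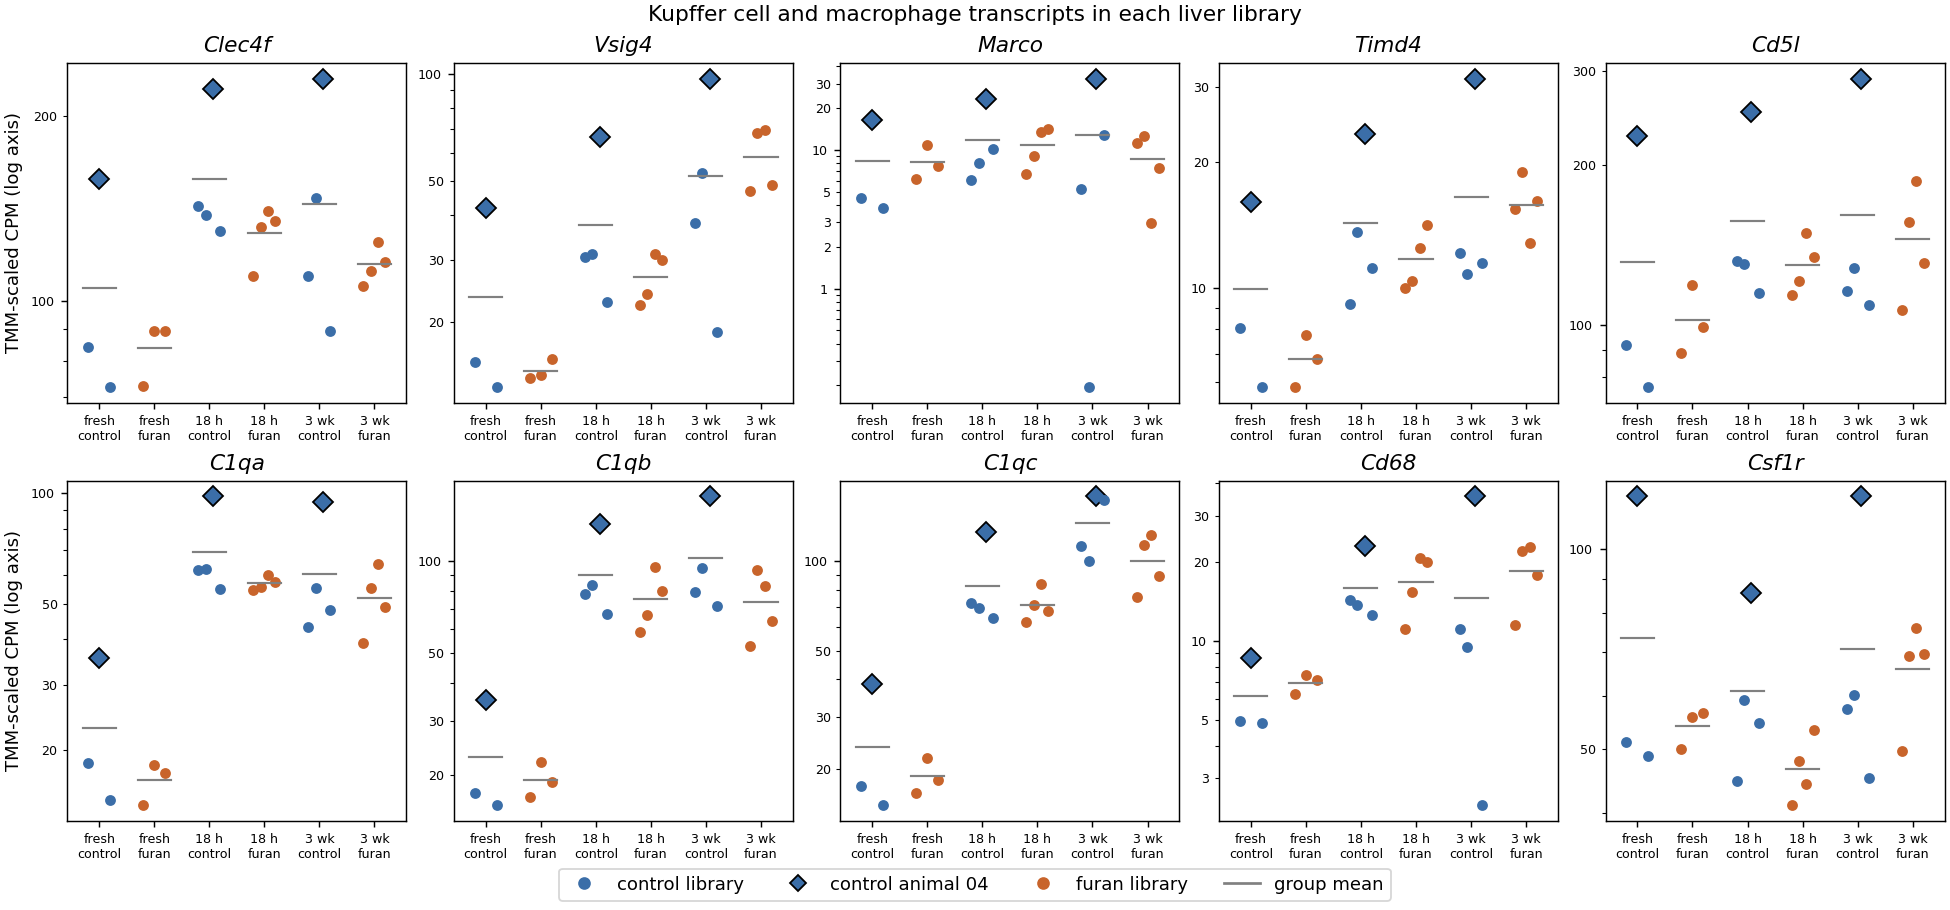
TMM-scaled CPM of each of the 10 genes (vertical, log axis) in every library of the 6 groups (horizontal), with 1 point per library, a bar at the group mean and control animal 04 drawn as a diamond. In each panel the diamond is the highest control of its kind of piece, and the C1q panels are higher in FFPE than in fresh-frozen control pieces.

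In fresh-frozen control livers the secreted protein Cd5l and the lectin Clec4f were the most abundant members per length of transcript. On the scale of CPM per kilobase, where genes can be compared, the group mean was 64.6 for Cd5l and 42.5 for Clec4f. The C1q chains followed at 22.0 (C1qa), 21.0 (C1qb) and 19.7 (C1qc), then the complement receptor Vsig4 at 16.4 and Csf1r at 15. The ranges of neighbours in this order, down to Csf1r, overlapped over the 3 libraries. Within each library, Cd5l lay above Clec4f (ratio 1.28 to 1.73) and C1qa below it (0.478 to 0.536). The order among the C1q chains, and that of Vsig4 and Csf1r, differed between libraries and is not separated. The lysosomal glycoprotein Cd68 (4.91), the phosphatidylserine receptor Timd4 (4.58) and the scavenger receptor Marco (4.29) were lowest, and the range of Cd68 (3.88 to 6.87) did not overlap that of Csf1r (9.99 to 24.6).

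The spread between control livers was dominated by 1 animal. Control animal 04 was the highest control for 10 of 10 members in the fresh-frozen, the FFPE 18 h and the FFPE 3 wk piece, and it lay above every furan library of the same kind of piece for 10 of 10 members in all 3. It was singled out after its values were seen, so no test is given. Of 11870 genes tested in all 3 furan comparisons, 3.22% had animal 04 as the highest control in all 3 pieces. The same count for animals 02 and 06, the other controls with 3 pieces, was 373 and 894 genes. No member can be among those, since animal 04 was the highest control for all 10. The pattern of animal 04 was seen in separately extracted and sequenced pieces of 1 liver.

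The excess in animal 04 was largest for Marco and smallest for Cd68 among the fresh-frozen pieces. Marco was at 16.5 CPM in animal 04, 4.52 in animal 02 and 3.82 in animal 06, which is 3.95 times the mean of the other controls. Vsig4 was at 42 CPM against 15.4 and 13.1 (2.95 times). Animal 04 stood far above a close pair in both genes. Cd5l was at 226 CPM against 92.0 and 76.5 (2.68 times), and Clec4f at 158 against 84.3 and 72.5 (2.02 times). Csf1r was at 120 CPM against 51.2 and 48.8 (2.41 times), and Cd68 at 8.64 against 4.98 and 4.88 (1.75 times). The median over the 10 members was 2.33 times in frozen pieces, 1.78 times after 18 h of fixation (range 1.61 to 2.86) and 2.34 times after 3 wk (range 1.32 to 5.35). The FFPE 3 wk upper end was Marco, which had 2 counts, 0.194 CPM, in control animal 03, and the lower end was C1qc, where animal 06 reached 161 CPM beside 165 in animal 04.

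By summed level, which abundant genes dominate, only the general one of the other macrophage lists was raised to a like degree in animal 04. The summed level of 16 general macrophage genes was 677 CPM in animal 04 and 326 to 338 in the other fresh-frozen controls (2.04 times), and 1.86 and 1.88 times in the FFPE pieces. All 16 of them were highest in animal 04 in fresh-frozen livers. The sum of 12 further Kupffer cell genes was 1.27, 1.14 and 1.28 times the other controls in fresh-frozen, FFPE 18 h and FFPE 3 wk pieces. It was 1.03, 1.03 and 1.21 times for the CSF1 receptor axis and macrophage transcription factors, and 1.19, 1.22 and 1.15 times for genes of monocytes and lipid-associated macrophages. By single genes, animal 04 was the highest fresh-frozen control for 11 of 12, 6 of 9 and 9 of 13 genes of these lists. The counts were 9, 4 and 5 in FFPE 18 h pieces, and 4, 4 and 5 in FFPE 3 wk pieces. Hepatocyte (0.966 times), stellate (1.01) and sinusoidal endothelial lists (1.06) were near the other fresh-frozen controls. Lists of blood cells were low and higher in that piece, namely neutrophil markers (3.52 CPM against 1.82 to 1.88), T and NK cell markers (4.10 against 2.00 to 2.57) and B cell markers (2.82 against 1.39 to 1.55). No gene of these 3 lists was at 0 in every fresh-frozen library, and in FFPE 18 h controls the sums were 5.96 against 2.49 to 4.75, 7.88 against 5.88 to 6.75, and 5.66 against 2.64 to 7.08 CPM. The part of these cells in the members' levels was not tested.

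**Figure D2:**
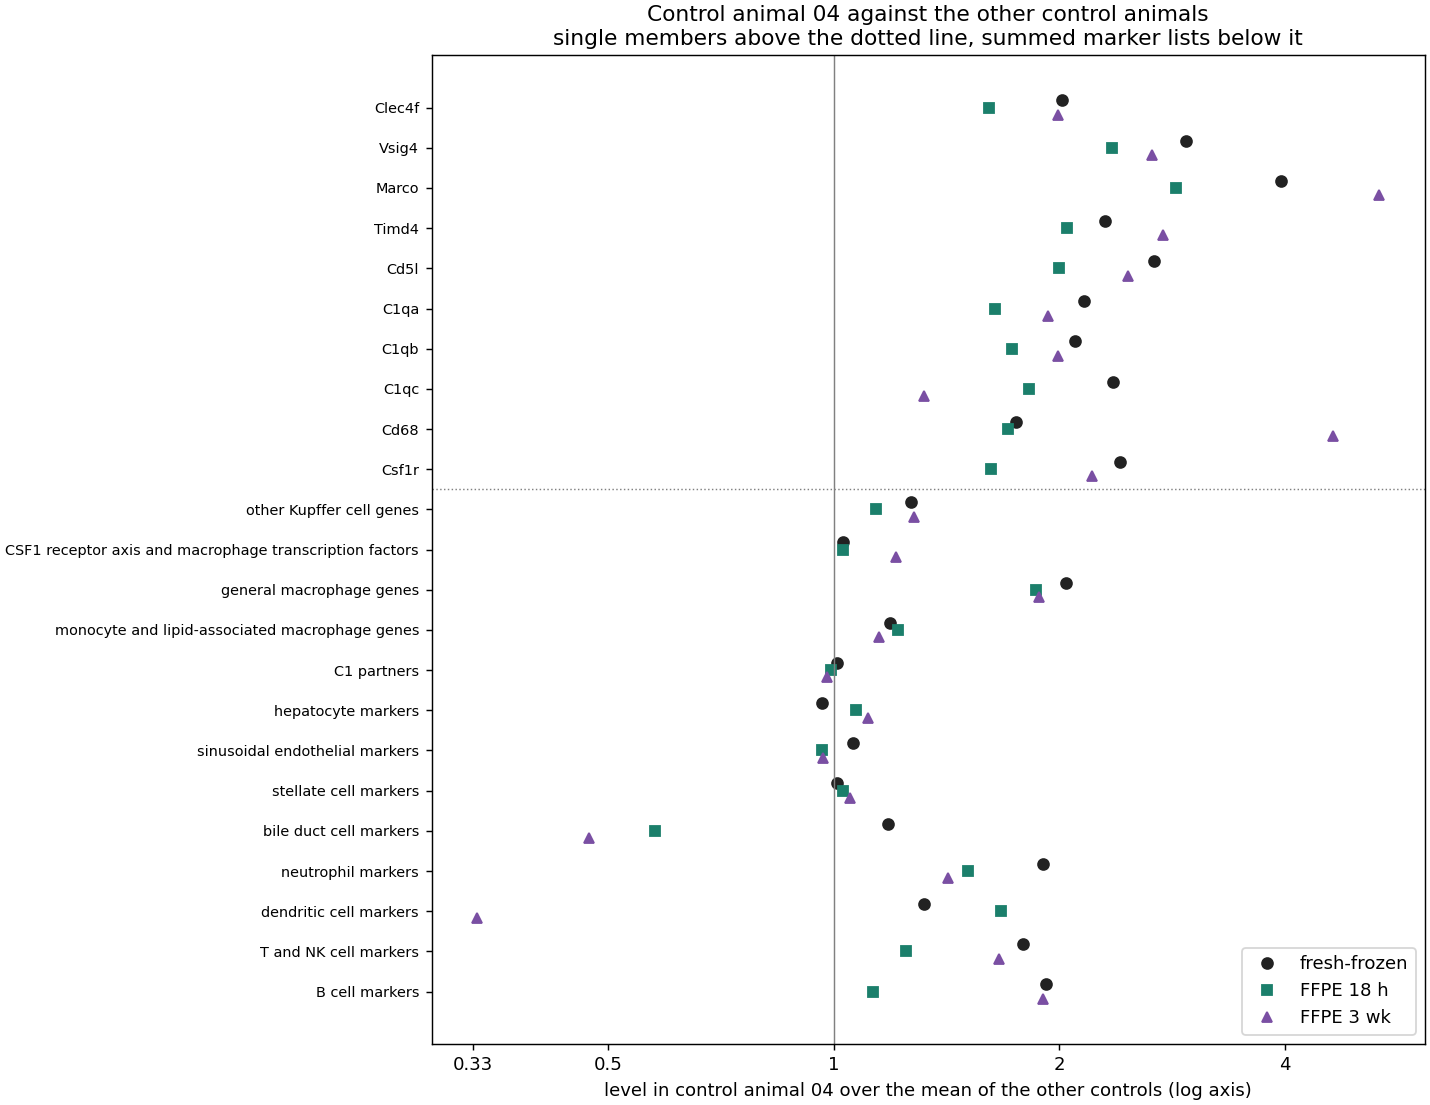
Level in control animal 04 divided by the mean of the other control animals of the same kind of piece (horizontal, log axis), for each of the 10 genes and, below the dotted line, for the summed CPM of each marker list. All 30 member values lie above 1, between 1.32 and 5.35, and the list of general macrophage genes lies between 1.86 and 2.04.

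The members also varied together between animals of the same group. After each group's mean was removed on the log2(CPM + 0.5) scale, Pearson's r of each member with the mean of the other 9 ran from 0.896 (Cd68) to 0.985 (Cd5l) over 14 fresh-frozen and FFPE 18 h libraries. Without animal 04 it ran from 0.505 (Csf1r) to 0.905 (C1qb) over 12 libraries. These libraries share animals between pieces, and the values are descriptions without a test. Among 12663 genes, the 8 most like the members' mean by this measure were Cfp (properdin, r = 0.979), Aif1 (the macrophage marker IBA1, 0.975), Itgb2 (the integrin chain CD18, 0.970), Slc15a3 (a lysosomal peptide transporter, 0.968), Nckap1l (a haematopoietic actin regulator, 0.966), Slc11a1 (the phagosomal metal transporter NRAMP1, 0.962), Ctss (cathepsin S, 0.961) and Clec7a (the beta-glucan receptor Dectin-1, 0.960). All 8 were higher in animal 04 than in the other controls in fresh-frozen and FFPE 18 h pieces. The ranking used these same libraries, where animal 04 was the highest control for every member, so the choice of genes favours this outcome. FFPE 3 wk pieces were not used for the ranking. There Itgb2 and Slc11a1 were higher in another control than in animal 04, and the rest of the 8 were highest in animal 04. The r of the 8 without that animal is not given. Clec7a was at 9.22 CPM in animal 04 and 1.84 to 1.90 in the other fresh-frozen controls.

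The furan comparison asks whether 3 weeks of dosing changed these transcripts in liver. In fresh-frozen livers 0 of 10 members passed an adjusted p of 0.05 in edgeR's quasi-likelihood test, where 15.7% of all 13794 tested genes did, and 0 members reached an unadjusted p under 0.05 (DESeq2 also called 0). The furan and control ranges overlapped for all 10, whereas 17.4% of genes were higher and 20.3% lower without overlap. Log2 fold changes lay between -0.67 (Vsig4) and 0.19 (Cd68), with a median of -0.32 beside -0.01 for all genes.

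The receptors of Kupffer cells showed the pattern in single livers. Clec4f was at 72.9, 89.6 and 89.4 CPM in furan livers and 84.3, 158 and 72.5 in controls, a log2 fold change of -0.30 ± 0.26 (SE; 95% interval -0.81 to 0.21; adjusted p = 0.469, edgeR). Vsig4 was at 13.9, 14.2 and 15.7 CPM in furan and 15.4, 42 and 13.1 in control livers (-0.67 ± 0.39, adjusted p = 0.280, edgeR). Furan libraries were close to each other and to control animals 02 and 06 in both genes. Timd4, which binds the phosphatidylserine of dying cells, was at 5.84, 7.73 and 6.81 CPM in furan and 8.06, 16.0 and 5.82 in control livers (-0.53 ± 0.33). Cd5l was at 88.8, 119 and 99.2 CPM in furan and 92.0, 226 and 76.5 in control livers (-0.34 ± 0.36). The same animal, 04, was the high control each time. The 3 C1q chains had log2 fold changes of -0.45 ± 0.29 (C1qa), -0.23 ± 0.27 (C1qb) and -0.30 ± 0.32 (C1qc), and Csf1r had -0.42 ± 0.31.

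Marco and Cd68 changed their call with control animal 04. Marco was at 6.17, 10.9 and 7.60 CPM in furan livers and 4.52, 16.5 and 3.82 in controls. Cd68, a protein of macrophage lysosomes, was at 6.30, 7.41 and 7.12 CPM in furan livers and 4.98, 8.64 and 4.88 in controls. In both genes all 3 furan livers lay above 2 controls and below animal 04. With all libraries the log2 fold changes were 0.01 ± 0.51 for Marco and 0.19 ± 0.21 for Cd68 (adjusted p = 0.993 and 0.590, edgeR). Without that library, with 3 furan and 2 control livers left, both passed the threshold. Marco was at 0.99 ± 0.24 (adjusted p = 0.0491, edgeR) and Cd68 at 0.50 ± 0.12 (adjusted p = 0.0457), where 4.57% of genes were called higher. That animal was singled out after its values were seen, and leaving out the highest control raises each estimate by construction. The calls of this fit are therefore descriptive. The other 8 members were not called in that fit, 9 of 10 log2 fold changes were positive, and the median was 0.17.

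Neither FFPE series called a member. In FFPE 18 h pieces 0 of 10 passed, beside 8.39% of 12832 genes, with log2 fold changes from -0.49 (Vsig4) to 0.08 (Cd68) and a median of -0.28. The smallest p was that of Csf1r (-0.39 ± 0.17, unadjusted p = 0.0414, adjusted p = 0.192, edgeR), and it was the 1 member under an unadjusted p of 0.05. Csf1r was at 41.1, 48.0, 44.3 and 53.3 CPM in furan and 44.7, 59.2, 85.7 and 54.6 in control livers, so the groups overlapped. In FFPE 3 wk pieces 0 of 10 passed, beside 0.821% of 12064 genes, with 0 under an unadjusted p of 0.05 and log2 fold changes from -0.51 (Marco) to 0.37 (Cd68). The 95% interval of Clec4f was -0.59 to 0.01 in FFPE 18 h and -0.75 to 0.17 in FFPE 3 wk pieces. Without control animal 04 it was -0.25 to 0.12 and -0.33 to 0.40, so the limits depended on that animal.

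Control animal 04 was the highest control for every member in both FFPE series, so leaving it out raises the furan estimates by construction. No member was called in either fit. In FFPE 18 h pieces the median became 0.03 with 0 of 10 called (5.92% of all genes), and Marco and Cd68 were at 0.46 ± 0.26 and 0.34 ± 0.19 (adjusted p = 0.357 and 0.355, edgeR). In FFPE 3 wk pieces the median became 0.33 with 0 of 10 called (0.248% of all genes), Cd68 was at 1.31 ± 0.55 (adjusted p = 0.380, edgeR) and Vsig4 at 0.71 ± 0.32 (adjusted p = 0.439). The low FFPE 3 wk control of Cd68 was animal 06, at 2.37 CPM from 24 counts. The difference in furan response between FFPE and fresh-frozen pieces, tested as an interaction, was called for 0 of 10 members and 0% of all genes at both fixation times. At an unadjusted p under 0.05 there were 455 genes in the 18 h and 590 in the 3 wk interaction and 0 members in each, and DESeq2 called 1 and 17 genes. These fits ignored that pieces share animals. With the animal as a block, 1557 and 741 genes were under an unadjusted p of 0.05, with 0 and 1 members. The member was Vsig4 in the 3 wk interaction (0.92 ± 0.32, unadjusted p = 0.0153, adjusted p = 0.835, edgeR), and 0 members were called.

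**Figure D3:**
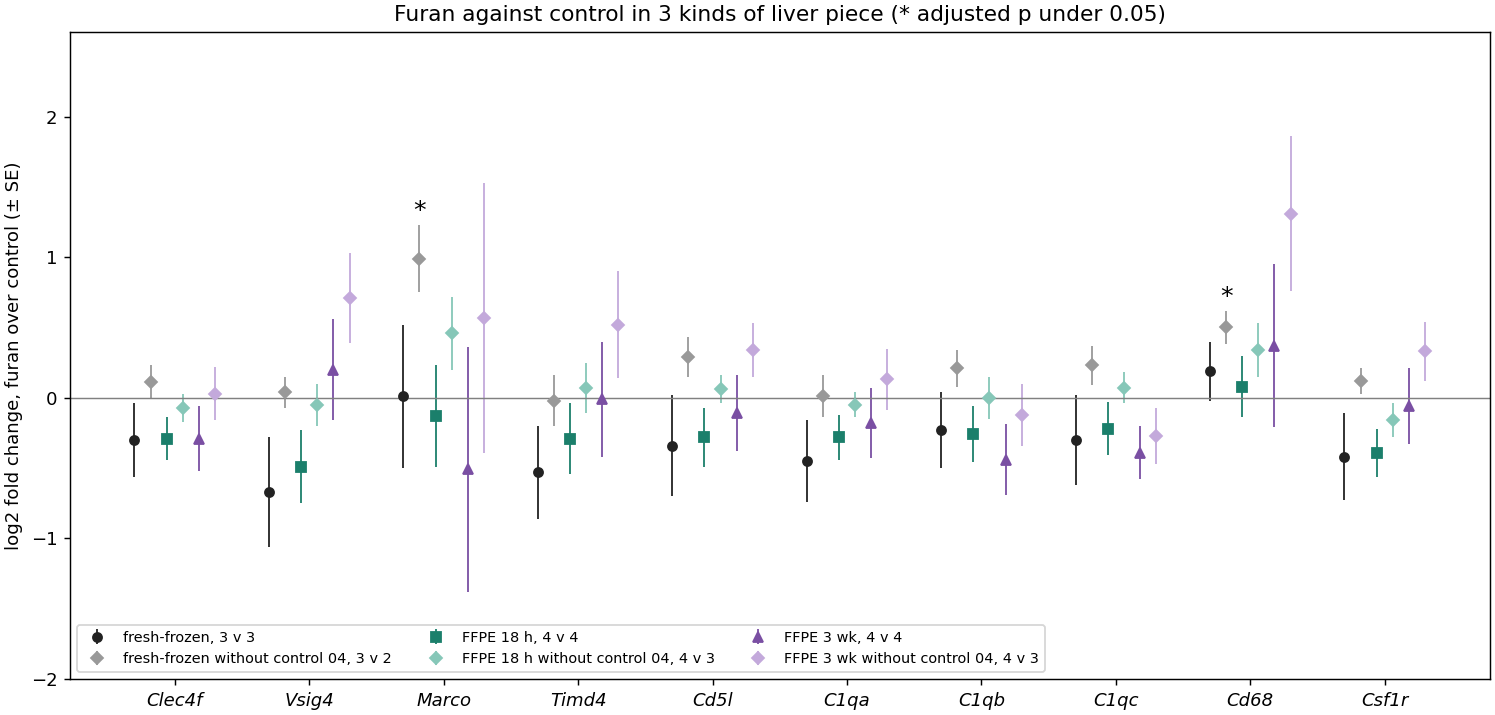
Log2 fold change of furan over control with its SE (vertical) for each gene in fresh-frozen, FFPE 18 h and FFPE 3 wk pieces, with all libraries (dark symbols) and without control animal 04 (pale diamonds). The asterisks mark an adjusted p under 0.05, which was reached by Marco (0.99) and Cd68 (0.50) in fresh-frozen livers without animal 04. That animal was the highest control and was singled out after its values were seen.

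Other genes of macrophages gave a mixed picture with furan. Of 10 tested genes of monocytes and lipid-associated macrophages, 2 rose in fresh-frozen livers (8.21% of all genes rose) and 0 fell. They were the macrophage elastase Mmp12, from 0.139 to 0.425 CPM in controls to between 3.19 and 8.62 in furan livers (adjusted p = 0.00250, edgeR), and the tetraspanin Cd63, which rose by 1.89 ± 0.27 (adjusted p = 0.00524). Both also rose in FFPE 18 h livers (3.92% of all genes rose), where Cd63 rose by 1.60 ± 0.20. Mmp12 had 4 counts in the 4 FFPE 18 h controls together and between 43 and 118 per furan library. In FFPE 3 wk livers 0 of 9 tested genes of this list were called, beside 0.821% of all genes. The cells from which the Mmp12 and Cd63 transcripts came were not tested. Trem2 and Gpnmb, further markers of lipid-associated macrophages, had means of 0.299 and 0.502 CPM in fresh-frozen furan livers, and no difference from controls is reported for them. Of 12 further Kupffer cell genes only the haem oxygenase gene Hmox1, which hepatocytes also express, passed, and it rose by 2.17 ± 0.40 in fresh-frozen livers, by 1.94 ± 0.35 after 18 h of fixation and by 2.06 ± 0.31 after 3 wk (11 genes tested there). The mannose receptor Mrc1, shared by macrophages and sinusoidal endothelium, was the 1 of 15 tested general macrophage genes that passed, and it fell by 0.41 ± 0.11 in fresh-frozen and by 0.49 ± 0.11 in FFPE 18 h livers, where 7.47% and 4.47% of all genes fell. Without control animal 04 Mrc1 no longer passed in either (-0.30 and -0.43, adjusted p = 0.0837 and 0.0506, edgeR). Of 9 genes for the CSF1 receptor axis and macrophage transcription factors 0 passed in fresh-frozen livers, and Maf, 1 of 9, fell by 0.43 ± 0.10 in FFPE 18 h livers beside the same 4.47%. The Maf call was also lost without control animal 04 (-0.42, adjusted p = 0.0530, edgeR), though the estimate barely moved. With 1 control fewer, the share of all genes called in FFPE 18 h livers went from 8.39% to 5.92%. Mmp12, Cd63 and Hmox1 were still called without that animal in the pieces where they had passed.

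The complement factors that act with C1q were lower with furan. In fresh-frozen livers 4 of 6 fell, where 7.47% of all genes did: Serping1, the C1 inhibitor, by 0.50 ± 0.08, C4b by 0.39 ± 0.09, C2 by 0.34 ± 0.06 and the protease C1ra by 0.33 ± 0.07 on the log2 scale (adjusted p = 0.00716, 0.0290, 0.00997 and 0.0164, edgeR). In FFPE 18 h livers Serping1, C2 and C4b fell (3 of 6, where 4.47% of all genes fell), and in FFPE 3 wk livers Serping1 did (-0.59 ± 0.11, adjusted p = 0.0294, edgeR; 0.821% of all genes were called there in either direction). These factors are made mainly by hepatocytes, and the C1q chains themselves had no call. Sinusoidal endothelial markers, of cells that neighbour Kupffer cells, fell in 5 of 10 cases in fresh-frozen livers. Their summed level there was 345 to 422 CPM in furan and 487 to 522 in control livers. In FFPE 18 h livers 2 of 10 fell, and in FFPE 3 wk livers 0 of 10 did. The summed level was 368 to 420 CPM in furan and 483 to 523 in control livers after 18 h. After 3 wk it was 451 to 513 and 542 to 628 CPM. Without control animal 04, 3 of 6 complement factors and 3 of 10 endothelial markers were lower in fresh-frozen livers, beside 4.72% of all genes. In FFPE 3 wk livers none of these complement factors was called without it, where 0.248% of all genes were. Serping1 stood at -0.62 ± 0.12 (adjusted p = 0.0689, edgeR), so its estimate was no smaller than with all libraries.

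The preservation comparison asks how far fixed pieces of control livers carry the levels of frozen ones. The 18 h and 3 wk comparisons share the fresh-frozen control libraries. Frozen RNA came from about 100 mg of tissue, and FFPE RNA from 1 (18 h) or 2 sections (3 wk) of 10 micrometres with another kit, and RNA integrity (RIN) exceeded 8.9 in frozen tissue and was 1.3 to 2.4 in FFPE tissue, so fixation, extraction kit and tissue amount cannot be told apart.

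The C1q chains stood well above their frozen levels in fixed pieces. C1qb, the chain with the largest difference in FFPE 18 h pieces, was at 17.5, 35.1 and 15.9 CPM in fresh-frozen controls and 78.1, 83.6, 132 and 67.3 in FFPE 18 h controls, and it was higher by 2.11 ± 0.32 (adjusted p = 2.14e-04, edgeR). C1qc was at 17.5, 38.5 and 15.1 CPM in fresh-frozen and 72.2, 69.3, 125 and 64.5 in FFPE 18 h controls (1.94 ± 0.35, adjusted p = 7.62e-04), and C1qa was higher by 1.73 ± 0.31 (adjusted p = 7.09e-04). All FFPE 18 h controls exceeded all fresh-frozen controls for the 3 chains. The same held for Cd68, at 4.98, 8.64 and 4.88 CPM against 14.3, 13.7, 23.1 and 12.6 (1.5 ± 0.27, adjusted p = 7.41e-04), and 30.2% of all genes were higher without overlap in this comparison. With Clec4f (0.72 ± 0.27, adjusted p = 0.0400) the called members were 5 of 10 in FFPE 18 h pieces, beside 34.2% of 13034 genes called higher.

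Pairing the pieces by animal brought 9 of 10 members past the threshold in FFPE 18 h pieces. With the animal as a block 36.0% of all genes were called higher, and the members' estimates ran from 0.54 ± 0.08 (Cd5l) to 2.17 ± 0.08 (C1qb) for the 9. Csf1r was the exception at -0.06 ± 0.10 (adjusted p = 0.583, edgeR). Without fresh-frozen control 04 the unblocked fit called the same 9, beside 31.3% of all genes, with Csf1r at 0.38 ± 0.24 (adjusted p = 0.194). Without FFPE 18 h control 04 it called 4, the C1q chains and Cd68, beside 32.1% of all genes, with Clec4f at 0.50 ± 0.25 (adjusted p = 0.113), Marco at 0.07 and Cd5l at 0.05. The unblocked call of Clec4f was lost in 5 of the 7 fits that left out 1 library. Csf1r changed sign when animal 04 was left out of every group (0.16).

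After 3 wk of fixation the C1q chains were again the members called. C1qc was at 112, 100, 165 and 161 CPM and C1qb at 79.5, 94.9, 163 and 71.6 CPM in FFPE 3 wk controls, all above every fresh-frozen control. They were higher by 2.57 ± 0.36 and 2.23 ± 0.38, and C1qa by 1.47 ± 0.38 (adjusted p = 8.94e-04, 0.00282 and 0.0202, edgeR). These 3 of 10 compare with 13.2% of 12145 genes called higher and 17.1% higher without overlap. The call of C1qa was lost in 3 of the 7 fits that left out 1 library, which included the fit without FFPE 3 wk control 04 (1.14 ± 0.35, adjusted p = 0.0543, edgeR; 2 of 10 members called beside 12.0% of all genes). With the animal as a block, which moved the median of all genes from -0.03 to -0.26, 6 of 10 were called (10.7% of all genes), namely the C1q chains, Vsig4 (1.08 ± 0.26), Clec4f (0.48 ± 0.14) and Cd5l (0.47 ± 0.13). In 1 model of all 6 groups 5 of 10 were called (19.3% of all genes).

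The size of the difference followed transcript length across the table. Genes with exons of 1000 to 1500 nt, the class of the C1q chains (1040 to 1203 nt), Cd68 (1257) and Vsig4 (1432), had a median log2 fold change of 1.35 (quartiles 0.78 and 1.94, 1098 genes) in FFPE 18 h and 0.92 (0.21 and 1.58) in FFPE 3 wk pieces. Genes of 1500 to 2500 nt, the class of Clec4f, Marco, Timd4 and Cd5l, had 0.52 and 0.30. Genes of 4000 nt or more, the class of Csf1r (4885 nt), had -0.58 and -0.45. In the fits without the animal block, C1qb in FFPE 18 h pieces and C1qb and C1qc in FFPE 3 wk pieces lay above the upper quartile of their class. Some genes of any class lie there by definition. Vsig4 (0.82) and Cd5l (0.39) lay below the medians of their classes in FFPE 18 h pieces. All other member values lay above their class medians, and Csf1r did so at both times. Lengths are exon unions of a later genome build, and the part of length in the members' differences was not tested.

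**Figure D4:**
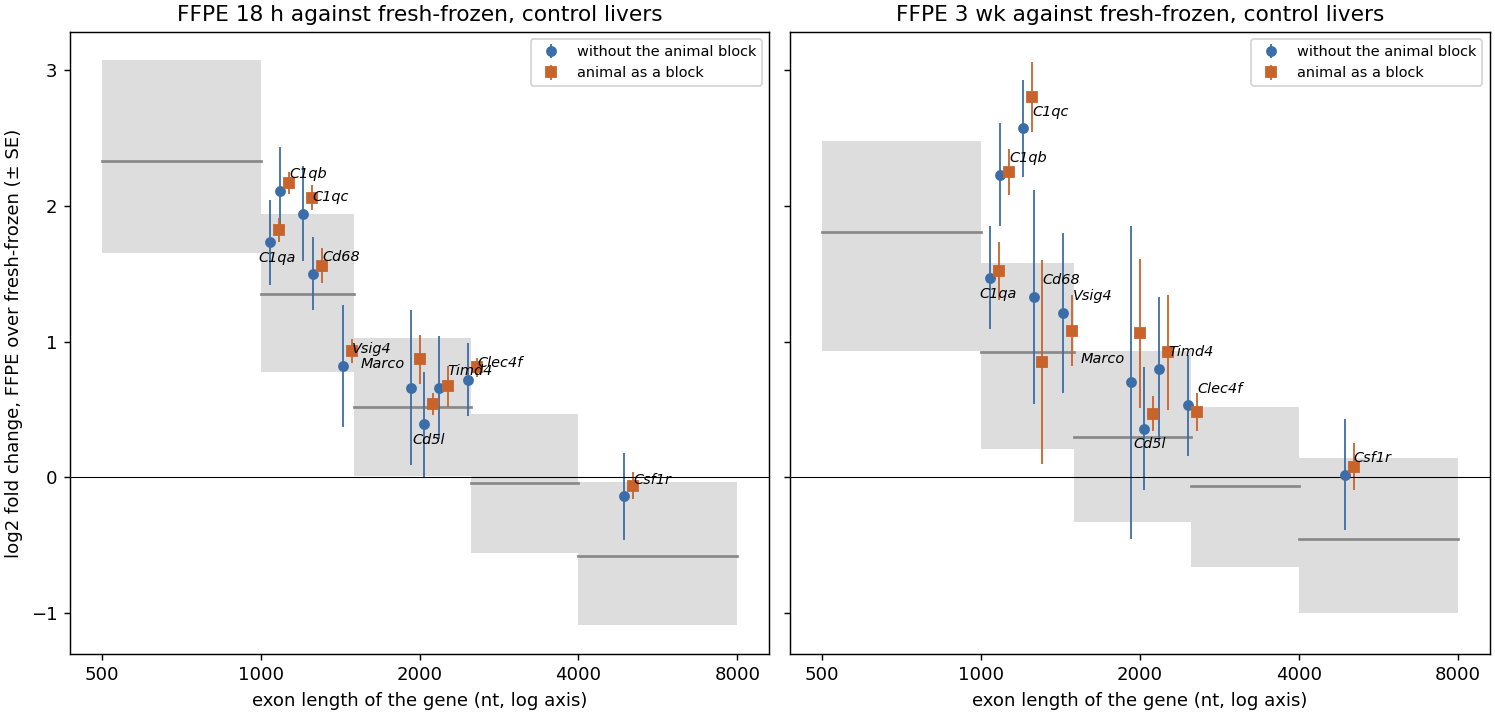
Log2 fold change of FFPE over fresh-frozen control pieces with its SE (vertical) against exon length (horizontal, log axis), for 18 h (left) and 3 wk fixation (right), without (circles) and with (squares) the animal as a block. Grey bands give the quartiles and grey lines the median of all tested genes of a length class, with the shortest and longest classes drawn to the ends of the axis. The C1q chains are the highest members in both panels and Csf1r is the lowest.

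Ratios between members within a library are not altered by a factor common to all macrophage transcripts. Per kilobase, C1qb stood at 0.964 ± 0.0685 (SD, n = 3) of C1qa in fresh-frozen controls, 1.24 ± 0.0577 (n = 4) in FFPE 18 h and 1.62 ± 0.14 (n = 4) in FFPE 3 wk controls. Relative to Clec4f, C1qb stood at 0.492 ± 0.0168 in frozen controls, 1.29 ± 0.0943 after 18 h of fixation and 1.63 ± 0.145 after 3 wk, with no overlap between frozen and fixed libraries. In fresh-frozen controls this ratio was 0.473 in animal 02, 0.505 in animal 04 and 0.498 in animal 06, while their Clec4f levels differed 2.18-fold. Other ratios to Clec4f were further apart in animal 04. Vsig4 stood at 0.459 of Clec4f there and at 0.316 and 0.312 in the other fresh-frozen controls, Marco at 0.134 against 0.0688 and 0.0676, and Cd5l at 1.73 against 1.33 and 1.28. Csf1r relative to Clec4f was lower in fixed pieces, at 0.344 ± 0.0392 in frozen controls, 0.196 ± 0.0265 after 18 h of fixation and 0.247 ± 0.0271 after 3 wk. Cd68 relative to Clec4f was 0.163 ± 0.00664 in fresh-frozen furan livers and 0.119 ± 0.0125 in fresh-frozen controls, with furan libraries between 0.157 and 0.170 and controls between 0.107 and 0.132, a difference chosen after its values were seen and not tested. In fixed pieces the same ratio overlapped between the groups, at 0.199 to 0.292 in furan and 0.190 to 0.206 in control livers after 18 h, and at 0.213 to 0.387 and 0.0520 to 0.304 after 3 wk.

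Other macrophage genes were called in both directions in FFPE 18 h pieces. The signalling adaptors Tyrobp and Fcer1g were higher by 3.32 ± 0.38 and 3.38 ± 0.43, the marker Aif1 by 2.64 ± 0.38 and the Fc receptor Fcgr3 by 1.65 ± 0.25. The clearance receptor Mertk was lower by a log2 fold change of -1.48 ± 0.22, the iron exporter Slc40a1 by -0.80 ± 0.14 and Mrc1 by -0.56 ± 0.13. These are read against 34.2% of all genes called higher and 33.8% lower, and 36.0% and 36.3% with the animal as a block. Of 15 tested general macrophage genes 3 were called higher and 2 lower, which is below those shares, and with the block 8 higher and 5 lower. Of 12 further Kupffer cell genes 6 were higher and 2 lower, and with the block 8 and 3. Of 9 genes of the CSF1 receptor axis and macrophage transcription factors, the list that holds Tyrobp and Fcer1g, 4 were higher and 1 lower, and with the block 4 and 2. Among the complement partners of C1q 4 of 6 were lower, with C3 at -1.42 ± 0.08 and C4b at -1.53 ± 0.07, where 33.8% of all genes were lower. In FFPE 3 wk pieces 4 of the 6 were lower beside 13.0% of all genes, with C3 at -2.35 ± 0.07.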

How the data were processed

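Livers of 8 mice were profiled by poly(A)-selected, unstranded RNA sequencing. Per the submitters' processing notes, CASAVA 1.8.2, STAR 2.3.0, featureCounts 1.4.4 and build mm9 were used. The authors deposited raw counts per gene symbol. Of 24 labelled samples 22 had a column whose name matched, and 2 other columns were not used. Each comparison was fitted on its own libraries with edgeR 4.0.16 in R 4.3.3 (filterByExpr, TMM, quasi-likelihood F test, Benjamini-Hochberg over all tested genes, threshold 0.05). A fold change's SE was taken from its F statistic, and 95% intervals are approximate. All 10 members are named, and of each other list the called genes with the smallest p (up to 4) or its defining gene. Trem2 and Gpnmb were added after their values were seen. Members and lists were chosen with earlier results of these data known. Pieces of 1 liver share an animal by label. Their deviations from group means correlated at 0.436 to 0.461 (fresh-frozen and FFPE 18 h) and 0.0896 to 0.152 (fresh-frozen and FFPE 3 wk) over 12103 genes. No libraries were duplicates (lowest chi-square per degree of freedom 9.36 over 30 pairs within groups). Alternatives were DESeq2 1.42.0, other scaling and filters, thinning to 3666173 counts, 1 model of all 6 groups, the animal block and each library left out. Fits without animal 04 in every group were chosen after seeing the data. Exon lengths came from GENCODE M21 (GRCm38), matched for 94.5% of genes. The fits were tested on simulated data.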

Additional observations from a re-analysis of the deposited data

Results flagged for a closer look

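In groups of 4 libraries the highest or lowest value was compared with the group's range. Of 40 such groups of member levels, 7 held a library far from the other 3, and chance gives about 1 in 20. All 7 were control animal 04. In FFPE 18 h controls its levels were 221 CPM for Clec4f (others 130 to 143), 251 for Cd5l (others 115 to 132), 98.0 for C1qa (others 54.8 to 62.1), 125 for C1qc (others 64.5 to 72.2) and 23.1 for Cd68 (others 12.6 to 14.3). In FFPE 3 wk controls they were 31.5 CPM for Timd4 (others 10.8 to 12.1) and 290 for Cd5l (others 109 to 128). The 40 tests are not independent, since the members vary together and the pieces share animals. The 7 therefore describe 1 animal several times and cannot be weighed against the rate of 1 in 20. Groups of 3 fresh-frozen libraries were not tested in this way.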

How the results depend on the processing

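Over the planned and added alternatives, 205 of 248 counts stayed within 1.5 times of the reported value and 687 of 760 members' log2 fold changes kept their direction and their side of the threshold. Of the others, 40 changed sign, 23 passed newly and 10 no longer passed. Thinning to the shallowest library gave 754 called genes for furan in fresh-frozen pieces, Marco at -0.09 there and Timd4 at 0.06 in FFPE 3 wk pieces. In 1 model of all 6 groups, called genes were 138, 225 and 2030 for furan in fresh-frozen, FFPE 18 h and FFPE 3 wk pieces, 5769 and 6028 for the 2 preservation comparisons, and 19 for the FFPE 3 wk interaction, with 5 members called and Csf1r at -0.04 in FFPE 3 wk controls. Fits on animals that also had a fresh-frozen library called 594 genes in FFPE 18 h and 19 in FFPE 3 wk pieces. For FFPE 3 wk furan pieces DESeq2 called 345 genes and the fit without a low-count filter 194, and that filter choice put Csf1r at -0.03 in FFPE 3 wk controls. DESeq2 called 1 and 17 genes in the interactions. The causes were not tested, except that thinning and the removal of libraries leave fewer counts or samples.

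With the animal as a replicate block, 9 (FFPE 18 h) and 6 (FFPE 3 wk) members and 2 genes of the FFPE 18 h interaction were called. The block changed no other count of members. With animal 04 left out of every group, chosen after seeing the data, 9 members were called in FFPE 18 h controls without and with the block, Csf1r was at 0.16 and 0.06, FFPE 3 wk controls gave 1524 and 1519 genes, and the blocked FFPE 18 h interaction gave 14.

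Leaving out 1 library at a time, called members ran from 0 to 2 for furan in fresh-frozen pieces and from 4 to 9 for FFPE 18 h against fresh-frozen controls, where the 9 came without fresh-frozen control 04. Called genes ran from 864 to 1620 for furan in fresh-frozen, 633 to 1285 in FFPE 18 h and 17 to 173 in FFPE 3 wk pieces, from 1978 to 4398 for FFPE 3 wk controls, and from 0 to 5 in the FFPE 3 wk interaction. The fresh-frozen furan log2 fold change ran from -0.51 to 0.11 for Clec4f, -0.96 to 0.04 for Vsig4, -0.34 to 0.99 for Marco, -0.61 to 0.29 for Cd5l, -0.69 to 0.01 for C1qa, -0.43 to 0.21 for C1qb, -0.55 to 0.23 for C1qc and -0.64 to 0.12 for Csf1r, and the upper end came without control 04 each time. In FFPE 18 h pieces it ran from -0.35 to 0.46 for Marco, -0.46 to 0.07 for Timd4, -0.41 to 0.06 for Cd5l, -0.32 to 0.07 for C1qc and -0.03 to 0.34 for Cd68. In FFPE 3 wk pieces it ran from -0.48 to 0.03 for Clec4f, -0.09 to 0.71 for Vsig4, -0.92 to 0.57 for Marco, -0.17 to 0.52 for Timd4, -0.28 to 0.34 for Cd5l, -0.29 to 0.13 for C1qa, -0.00 to 1.31 for Cd68 and -0.24 to 0.33 for Csf1r. Against fresh-frozen controls, Csf1r ran from -0.37 to 0.38 in FFPE 18 h pieces, and Marco from -0.41 to 1.67, Cd5l from -0.12 to 0.99 and Csf1r from -0.40 to 0.55 in FFPE 3 wk pieces. Depth limits the low members: Marco had 2 counts and Cd68 24 in single FFPE 3 wk controls.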
